A study of Mus musculus with 6 samples.

Results

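The 10 genes described here encode parts of autophagy and mitophagy: the mitophagy receptors Bnip3 and Bnip3l, the ATG8 family members Map1lc3a, Map1lc3b and Gabarapl1, the cargo receptor Sqstm1, the lysosomal protease Ctsl, the kinase Ulk1, and the core factors Becn1 and Atg5. They were taken by name, with earlier results of these data known. All 10 were found among the 12625 genes of the raw count table. Libraries came from C2C12 cultures, a mouse myoblast line that fuses into myotubes. Myotubes on day 5 of differentiation were given either recombinant mouse RANKL at 100 ng per ml for 72 h (3 libraries) or vehicle (3 libraries). RANKL, also called Tnfsf11 or TRANCE, is the ligand of the receptor RANK, and the question the design states is what RANKL does to muscle fibres. All libraries are of 1 cell line, and the labels do not say whether replicates were separate cultures, so p-values measure the spread between these libraries, which may be technical.

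Autophagy encloses cytoplasm in a double membrane, the autophagosome, which then fuses with the lysosome so that its contents are degraded. The ULK1 kinase complex starts the process, the BECN1 complex makes the lipid signal on the forming membrane, and ATG5 belongs to the machinery that couples ATG8 family proteins (LC3 and GABARAP proteins) to that membrane. SQSTM1 (p62) ties ubiquitinated cargo to LC3, while BNIP3 and BNIP3L (NIX) sit on the outer mitochondrial membrane and bind LC3 directly, which targets mitochondria for mitophagy. In muscle, genes of this pathway are known to rise in several forms of atrophy, and FoxO factors and hypoxia are known inducers of Bnip3. The data are RNA levels, so they do not measure autophagic flux, which also depends on protein turnover.

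Because Bnip3 had the largest fold change of the 10, the stretch around its transcription start is shown, from 250 bases before to 50 bases after the RefSeq start (RefSeq GRCm38.p6, which is mm10, chr7:138909457-138909756, minus strand, 5′ to 3′). Capitals mark each ACGTG or GCGTG, the core letters of the hypoxia response element, on either strand, so that the reverse complements CACGT and CACGC are marked too. Windows of 30 bases around the E-box CACGTG of Atg5 (chr10:44268313-44268342, plus strand) and Ctsl (chr13:64370739-64370768, minus strand) are given for comparison, with the E-box in capitals.
Bnip3: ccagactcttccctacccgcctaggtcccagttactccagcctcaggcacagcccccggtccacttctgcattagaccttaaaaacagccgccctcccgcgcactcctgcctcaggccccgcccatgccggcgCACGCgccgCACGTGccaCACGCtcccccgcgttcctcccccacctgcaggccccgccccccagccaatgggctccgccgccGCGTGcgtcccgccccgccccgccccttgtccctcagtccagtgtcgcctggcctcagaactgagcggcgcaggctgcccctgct
Atg5: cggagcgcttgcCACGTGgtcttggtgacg
Ctsl: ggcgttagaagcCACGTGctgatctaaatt

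Promoter windows were matched for 7 of the 10 genes (Bnip3, Map1lc3b, Gabarapl1, Sqstm1, Ctsl, Ulk1 and Atg5). CACGTG, a palindrome that holds ACGTG on both strands and is known as the letters bound by TFEB and its relatives, stood in 3 of the 7, against 7.15% of all 32851 windows. In Bnip3 it begins at position -108 relative to the start, flanked by GCGTG at -117 and -99, with another GCGTG at -35. In Atg5 the E-box begins at -14 and in Ctsl at -236. These positions count from the RefSeq start. In GENCODE M21, Ctsl spans chr13:64359337 to 64370890, so its E-box lies inside that span. ACGTG stood in the same 3 of the 7 windows, against 19.6% of all windows, and GCGTG in 5 of the 7 (Map1lc3b and Ulk1 besides these 3), against 32.4%. The forkhead letters TGTTTAC stood in 0 of the 7 windows, against 3.65% of all. The NF-kB consensus, searched on both strands, stood in those of Gabarapl1 and Sqstm1, against 20.7% of all. The set of all windows was not matched to the 7 for expression or base content, and the differences in share were not tested. These matches describe letters and are not evidence of binding.

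Library totals lay between 32732604 and 39677999 counts, and the 10 genes had between 987 and 29480 counts in each library. The counting error of 1 library (100 over the square root of the mean count) was 0.624% to 3.00% for these genes, and in 7 of 20 gene and group values the coefficient of variation between libraries was no larger than it. These were values of Bnip3l, Map1lc3b, Sqstm1, Becn1 and Atg5, so their small SDs understate the error of a single value. Values are CPM, the count scaled to a common library size, after TMM scaling, changes are RANKL over vehicle, and called means an adjusted p under 0.05 by edgeR's quasi-likelihood test with Benjamini-Hochberg adjustment over all genes. All 11 myotube markers were measured. Their summed level was 31446 to 32125 CPM in RANKL libraries and 33475 to 36077 CPM in vehicle libraries. Of the 11, 5 were called lower (45.5%, against 7.5% of all genes) and 0 higher. Among those called were Myh8 and Acta1 (log2 fold changes -0.35 ± 0.05 and -0.19 ± 0.03, SE). In contrast, 4 (Ckm, Tnnt3, Mylpf and Myog) had log2 fold changes just above 0, at most 0.05. Markers of cycling cells, which in a myotube culture are unfused cells, summed to 149.7 to 179.5 CPM under RANKL and 109.2 to 118.0 CPM under vehicle. Of these, 9 of 10 were called higher (90%, against 5.35% of all genes), and 5 without vehicle replicate 2. RANKL replicate 1 was the highest library for that sum. Of 12 macrophage markers 4 were measured (Cd14, Cd68, Itgam and Mrc1), at a sum of 6.44 to 7.32 CPM under RANKL and 5.30 to 5.93 CPM under vehicle, with 0 called by edgeR and 1 at an unadjusted p under 0.05. Adgre1, Csf1r and Ptprc are not analysed here. Of 8 fibroblast markers 6 were measured, at a sum of 5129 to 5704 CPM under RANKL and 4693 to 4947 CPM under vehicle. Most of that sum was Col3a1, at 4072 to 4519 CPM under RANKL and 3666 to 3846 CPM under vehicle. Col3a1 was called higher (not without vehicle replicate 2), Pdgfrb was called lower and 4 were not called. In such bulk samples, fewer cells of a type and less RNA per cell cannot be told apart, and the part of cell composition in the results that follow was not tested.

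Of the 10 genes, both mitophagy receptors rose under RANKL and the other 8 were not called. Bnip3 was 1.28-fold and Bnip3l 1.10-fold higher in RANKL libraries. Calls of a rise thus covered 2 of 10 genes, against a background of 5.35% of all 12625 genes, and calls of a fall covered 0 of 10, against 7.5%. At an unadjusted p under 0.05, 5 of the 10 were higher, against 12.6% of all genes, and 1, Ulk1, was lower, against 14.5% (27.2% in either direction). limma-voom called Ulk1 lower, and DESeq2 called 0 lower. The log2 fold change was above 0 for 9 of the 10 genes, with a median of 0.09, beside 51.7% and a median of 0.00 over all genes. RANKL and vehicle libraries did not overlap in 5 of the 10 genes, higher in 4 (Bnip3, Bnip3l, Map1lc3b and Sqstm1) and lower in 1 (Ulk1), against a background of 14.9% of all genes higher, 16.6% lower and 31.5% in either direction. Over all genes 676 were called higher and 947 lower, and with total count scaling 1070 and 626, where the median log2 fold change of all genes was 0.04.

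**Figure D1:**
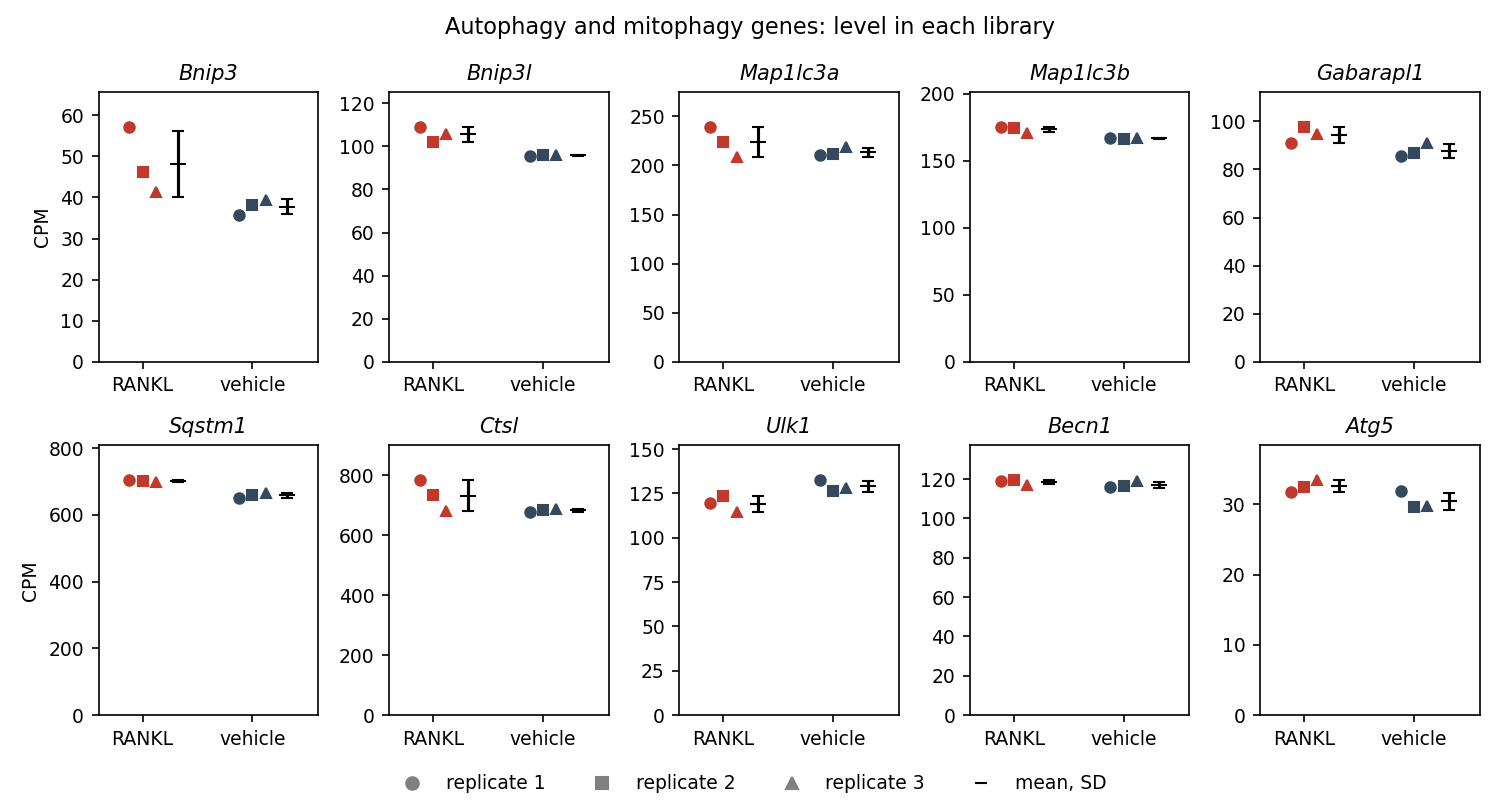
Level of each of the 10 genes in CPM (vertical axes from 0) in the 3 RANKL libraries (red, left) and 3 vehicle libraries (blue, right), with the mean and SD of each group in black. Bnip3 spreads from 41.2 to 57.1 CPM under RANKL, all above vehicle, while Becn1 overlaps between the groups.

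Bnip3, whose protein brings mitochondria to the autophagosome and can also promote cell death, had 57.1, 46.1 and 41.2 CPM in RANKL replicates 1, 2 and 3, against 35.8, 38.1 and 39.3 CPM in vehicle replicates 1, 2 and 3. The RANKL libraries all lay above the vehicle libraries, though RANKL replicate 3 was near the highest vehicle library and RANKL replicate 1 stood well above both others. The group means were 48.1 ± 8.12 CPM under RANKL and 37.8 ± 1.78 CPM under vehicle (SD, n = 3 each), a coefficient of variation of 16.9% against 4.70%. The log2 fold change was 0.35 ± 0.09 (SE, 95% interval 0.17 to 0.54, adjusted p = 0.0147). RANKL replicate 1 carried much of this size: without it the log2 fold change was 0.21 (adjusted p = 0.0119). The call ended without vehicle replicate 1 (adjusted p = 0.0819) or vehicle replicate 2 (0.0551), with DESeq2 (0.105) and with limma-trend on the deposited log2 values (0.0501), and over all 14 alternatives the adjusted p lay between 0.00128 and 0.105.

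Bnip3l, the related receptor that clears mitochondria from maturing red cells, had 108.9, 102.1 and 105.7 CPM in the RANKL libraries, against 95.7, 95.8 and 96.1 CPM in the vehicle libraries. The groups were clearly apart, and the vehicle libraries lay within 0.182% of each other as a coefficient of variation, beside 3.22% under RANKL. That vehicle spread is below the counting error of 1.69%. The log2 fold change was 0.14 ± 0.03 (95% interval 0.07 to 0.21, adjusted p = 0.0145), the smaller but more even rise of the pair. It was called in 13 of 14 alternatives, the exception being the fit without vehicle replicate 2 (adjusted p = 0.0616), and the adjusted p over all of them lay between 0.00491 and 0.0616.

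Bnip3 gave 0.524, 0.452 and 0.390 counts per count of Bnip3l in the RANKL libraries, against 0.374, 0.397 and 0.410 in the vehicle libraries. This ratio, which does not depend on library scaling, overlapped between the groups and did not differ beyond the spread (difference 0.20 on the log2 scale, exact two-sided permutation p = 0.3, and 0.6 adjusted over the 8 pairs tested). With 3 libraries against 3, an exact permutation p cannot go below 0.1. The larger fold change of Bnip3 was therefore not shown to differ from that of Bnip3l.

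**Figure D2:**
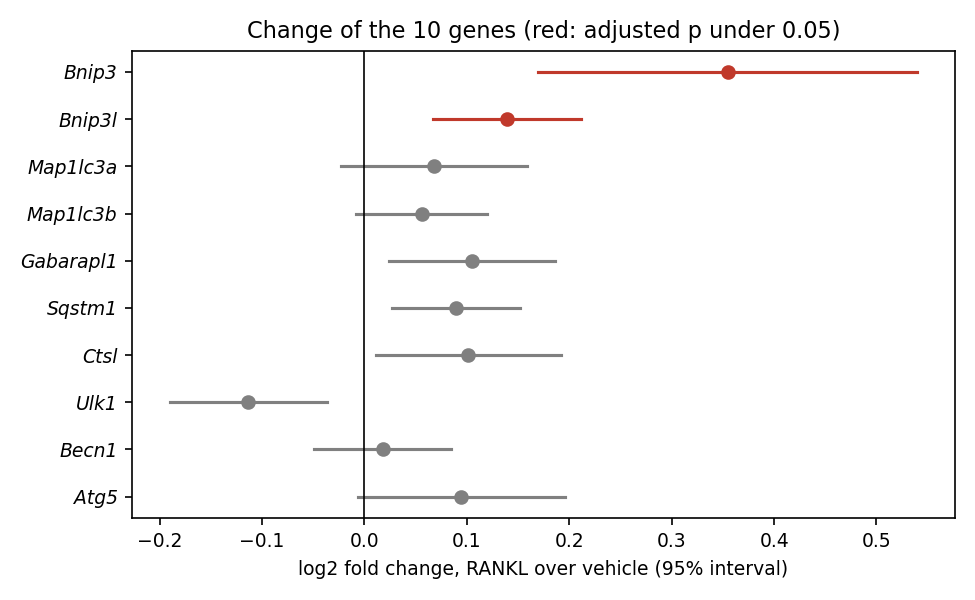
Log2 fold change, RANKL over vehicle, of the 10 genes (dots) with its 95% interval from edgeR (lines), in red where the adjusted p is under 0.05. Bnip3 (0.35) and Bnip3l (0.14) are called, and Ulk1 is the only one of the 10 below 0, at -0.11.

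Sqstm1, the receptor that carries ubiquitinated protein to LC3 and is itself degraded with it, had 703.1, 701.4 and 698.8 CPM in the RANKL libraries, against 651.3, 659.7 and 666.4 CPM in the vehicle libraries. The groups did not overlap, and the RANKL libraries were nearly equal. At a log2 fold change of 0.09 ± 0.03 it was not called (adjusted p = 0.0602). It passed with total count scaling (0.0175), DESeq2 (0.0323), limma-voom (0.0437) and the trend on gene length removed (0.0401). Over its 14 alternatives the log2 fold change lay between 0.08 and 0.12 and the adjusted p between 0.0175 and 0.173.

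Nbr1, a cargo receptor related to Sqstm1, stood at 304.6 ± 4.56 CPM under RANKL and 286.3 ± 2.78 CPM under vehicle (log2 fold change 0.09 ± 0.03, adjusted p = 0.063). The counts of Sqstm1 per count of Nbr1 were 2.27, 2.31 and 2.33 under RANKL, against 2.25, 2.31 and 2.34 under vehicle. Their difference was 0.00 on the log2 scale (exact permutation p = 1).

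**Figure D3:**
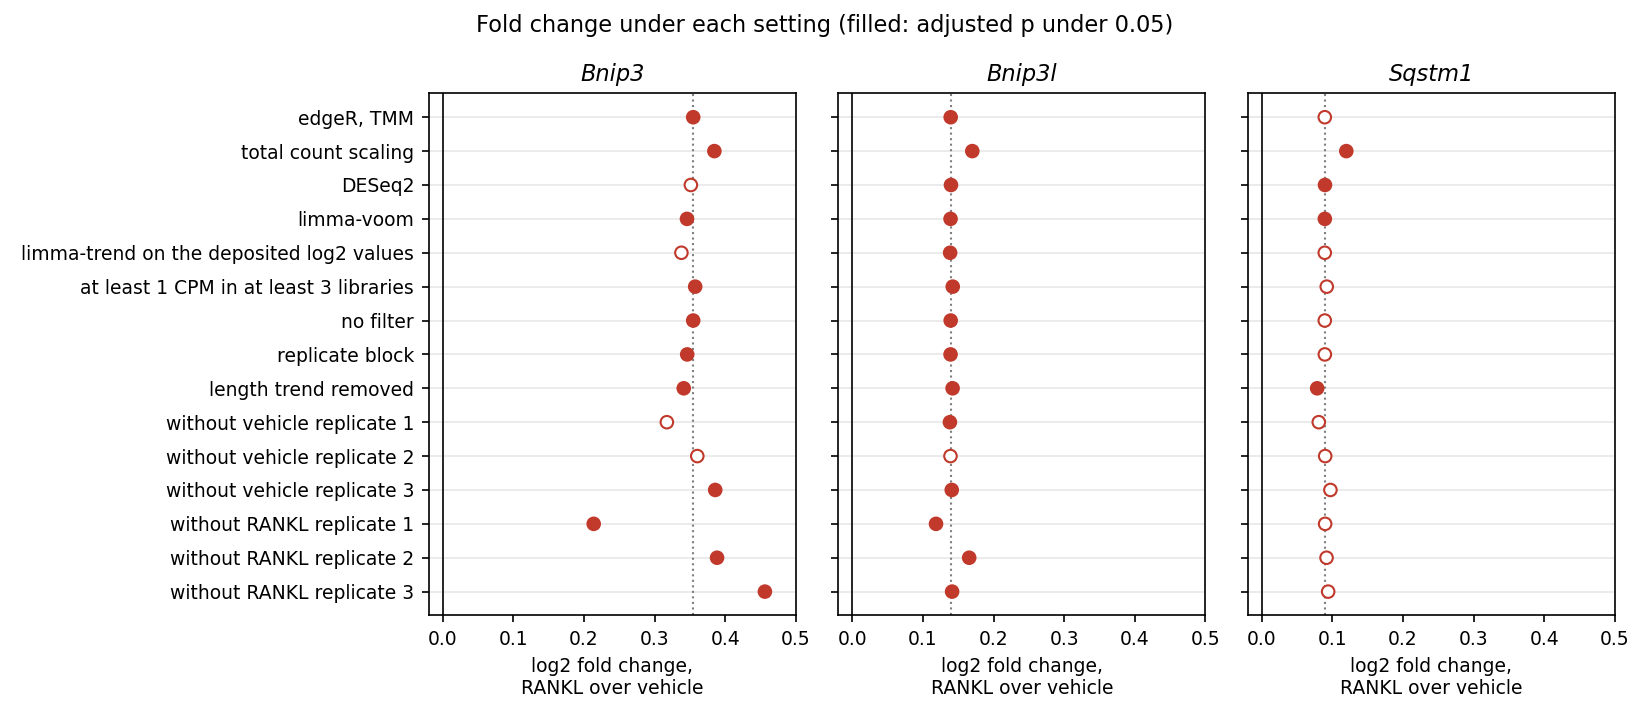
Log2 fold change of Bnip3, Bnip3l and Sqstm1 (horizontal axes) under edgeR with TMM scaling and 14 alternatives (rows), filled where the adjusted p is under 0.05, with the edgeR value as a dotted line. Bnip3 ranges from 0.21 to 0.46, Bnip3l from 0.12 to 0.17, and Sqstm1 from 0.08 to 0.12, on both sides of the threshold in each panel.

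Ulk1, the kinase that starts autophagosome formation when nutrients are short, was the 1 gene of the 10 that lay lower in RANKL libraries. It had 119.5, 123.5 and 114.5 CPM under RANKL, against 132.3, 126.5 and 127.9 CPM under vehicle. The groups did not overlap, with RANKL replicate 2 close to vehicle replicate 2. The log2 fold change of -0.11 ± 0.04 was not called (adjusted p = 0.0512), and over the 14 alternatives the adjusted p lay between 0.0493 (limma-voom, the 1 alternative that called it) and 0.178. Ulk2, a second kinase of this kind, stood at 104.9 ± 2.56 CPM under RANKL and 101.4 ± 0.439 CPM under vehicle (log2 fold change 0.05 ± 0.03, adjusted p = 0.366). The counts of Ulk1 per count of Ulk2 were 1.17, 1.18 and 1.06 under RANKL, against 1.30, 1.24 and 1.27 under vehicle, with no overlap. The difference was -0.16 on the log2 scale, and the exact permutation p of 0.1 is the smallest this design allows (0.533 adjusted over 8 pairs).

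Among the ATG8 family members, whose proteins are lipidated onto the autophagosome, changes were small and not called. Gabarapl1 had 90.8, 97.5 and 94.9 CPM under RANKL, against 85.4, 86.7 and 91.0 CPM under vehicle, where RANKL replicate 1 fell just under vehicle replicate 3. Its log2 fold change was 0.11 ± 0.04 (adjusted p = 0.0856), and it passed without RANKL replicate 1 (0.14, adjusted p = 0.0261) and with total count scaling (0.14, adjusted p = 0.0395). Over its 14 alternatives the adjusted p lay between 0.0261 and 0.274. Map1lc3b, which encodes the LC3B protein used as the usual marker of autophagosomes, had 175.2, 174.3 and 171.0 CPM under RANKL, against 167.4, 166.4 and 166.9 CPM under vehicle. These groups did not overlap, yet the log2 fold change was 0.06 ± 0.03 (95% interval -0.01 to 0.12, adjusted p = 0.253). Map1lc3a, which encodes LC3A, had 238.9, 223.7 and 208.9 CPM under RANKL, against 210.6, 211.4 and 218.9 CPM under vehicle. Its groups overlapped (log2 fold change 0.07 ± 0.04, adjusted p = 0.331), and without RANKL replicate 1 its log2 fold change was 0.02. The counts of Map1lc3a per count of Map1lc3b were 1.22 to 1.36 under RANKL and 1.26 to 1.31 under vehicle (difference 0.01 on the log2 scale, exact permutation p = 0.8).

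Of the 2 other ATG8 genes, Gabarapl2 stood at 48.7 ± 0.855 CPM under RANKL and 44.3 ± 2.83 CPM under vehicle, a log2 fold change of 0.14 ± 0.05 (adjusted p = 0.0726). Gabarap, chosen after its values were seen, had a log2 fold change of -0.01 ± 0.03 (adjusted p = 0.839). Gabarapl1 per Gabarapl2 was 1.89 to 1.96 under RANKL and 1.91 to 2.04 under vehicle (exact permutation p = 0.4). Of the 5 measured ATG8 genes 0 were called by edgeR, against 12.9% of all genes in either direction. Gabarapl1 and Gabarapl2 had an unadjusted p under 0.05, against 27.2% of all genes.

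Ctsl, a cysteine protease that breaks down cargo in the lysosome and is a common marker of muscle wasting, had 782.1, 732.6 and 680.9 CPM under RANKL, against 675.7, 683.9 and 686.8 CPM under vehicle. RANKL replicate 1 was high and RANKL replicate 3 lay within the vehicle range. The log2 fold change was 0.10 ± 0.04 (adjusted p = 0.132). It was 0.15 and called without RANKL replicate 3 (adjusted p = 0.0141), and 0.05 without RANKL replicate 1 (0.356), the lowest and highest adjusted p of its 14 alternatives. Ctsb, another abundant cysteine cathepsin, stood at 698.4 ± 6.22 CPM under RANKL and 708.6 ± 12.3 CPM under vehicle (adjusted p = 0.71). The counts of Ctsl per count of Ctsb were 1.12, 1.06 and 0.966 under RANKL, against 0.960, 0.978 and 0.951 under vehicle, with overlap (exact permutation p = 0.2, and 0.533 adjusted over the pairs).

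Becn1, the scaffold of the lipid kinase complex, had the smallest fold change of the 10. It had 118.8, 119.3 and 117.1 CPM under RANKL, against 115.9, 116.3 and 118.8 CPM under vehicle, and the groups overlapped. Its log2 fold change was 0.02 ± 0.03, with a 95% interval of -0.05 to 0.08, or 0.967-fold to 1.06-fold. Its counts per count of Pik3c3, the catalytic subunit of that complex, were 3.98 to 4.14 under RANKL and 4.02 to 4.33 under vehicle (exact permutation p = 0.5). Atg5, part of the conjugation machinery, had 31.7, 32.5 and 33.4 CPM under RANKL, against 31.9, 29.7 and 29.8 CPM under vehicle. Vehicle replicate 1 lay among the RANKL libraries, and the log2 fold change of 0.09 ± 0.05 was not called (adjusted p = 0.216). Atg12, the protein to which ATG5 is joined, had a log2 fold change of 0.00 ± 0.03. Atg5 per Atg12 was 0.394 to 0.406 under RANKL and 0.366 to 0.395 under vehicle (exact permutation p = 0.2).

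The order of levels could be read from the deposited log2 RPKM values, which are per gene length. Ctsl and Sqstm1 were the most abundant, at 371.3 ± 25.7 and 345.4 ± 1.09 RPKM under RANKL, against 346.1 ± 2.91 and 324.7 ± 3.72 RPKM under vehicle, and their libraries overlapped. Map1lc3a followed (214.2 ± 14.3 RPKM under RANKL), then Map1lc3b, Becn1, Gabarapl1 and Bnip3l, each apart from the next above it over the 6 libraries. Bnip3l overlapped Bnip3, and Bnip3 overlapped Ulk1. Atg5 was the lowest, at 13.9 ± 0.364 RPKM under RANKL. All 10 stood above the median of the genes in the table, from the 59.8th percentile for Atg5 to the 99.1st for Ctsl. The order rests on the gene lengths used: with exonic lengths of the annotation Sqstm1 ranked first and Becn1 moved from rank 5 to rank 9.

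RANKL replicate 1 was the highest RANKL library for 6 of the 10 genes, and 5 (Bnip3, Map1lc3a, Map1lc3b, Sqstm1 and Ctsl) had RANKL replicate 1 above replicate 2 and replicate 2 above replicate 3. Over all genes RANKL replicate 1 was the highest of the 3 in 35.6%, and the share in that full order was not computed. Since hypoxia is a known inducer of Bnip3, a list of 24 hypoxia-inducible genes was read beside it. Of these 5 rose (20.8%, against the background of 5.35%) and 1 fell, with a median log2 fold change of 0.09. Over the alternatives, applied to this list after the data were seen, between 3 and 9 rose. The count was 3 when RANKL replicate 2, vehicle replicate 2 or vehicle replicate 3 was left out, 9 without RANKL replicate 3, and 8 with total count scaling. The summed level of the list was 4074, 3743 and 3546 CPM in RANKL replicates 1, 2 and 3, against 3595, 3588 and 3607 CPM in the vehicle libraries, so RANKL replicate 1 was again high and RANKL replicate 3 was not above vehicle.

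Pgk1, a glycolytic enzyme, had the smallest p of the hypoxia-inducible genes that rose, with 244.5, 211.0 and 188.8 CPM under RANKL, against 171.5, 171.5 and 168.9 CPM under vehicle (log2 fold change 0.33 ± 0.06, adjusted p = 0.0038). The RANKL libraries stood in the same order as for Bnip3. Car9, a carbonic anhydrase, had 10.1, 6.55 and 5.49 CPM under RANKL, against 3.86, 4.78 and 3.44 CPM under vehicle (log2 fold change 0.89 ± 0.19, adjusted p = 0.00667). Its exons overlap those of Gm12454 on the opposite strand. Ldha (lactate dehydrogenase), Vegfa (the vascular growth factor) and Pfkfb3 (a regulator of glycolysis) rose by log2 0.16 ± 0.05, 0.14 ± 0.04 and 0.29 ± 0.06. Hk2, a hexokinase, fell by 0.18 ± 0.03 on the log2 scale (adjusted p = 0.003). Car9, Ldha, Vegfa and Pfkfb3 were picked with their values in view. The forkhead factors Foxo1 and Foxo3, known activators of Bnip3 and other autophagy genes in muscle, both fell: Foxo1 to 50.4 ± 1.03 CPM under RANKL, against 59.3 ± 3.00 CPM under vehicle (log2 fold change -0.23 ± 0.04, adjusted p = 0.00243), and Foxo3, chosen after its values were seen, by 0.13 ± 0.04 on the log2 scale (adjusted p = 0.0349). The part of any of these in the rise of Bnip3 was not tested.

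**Figure D4:**
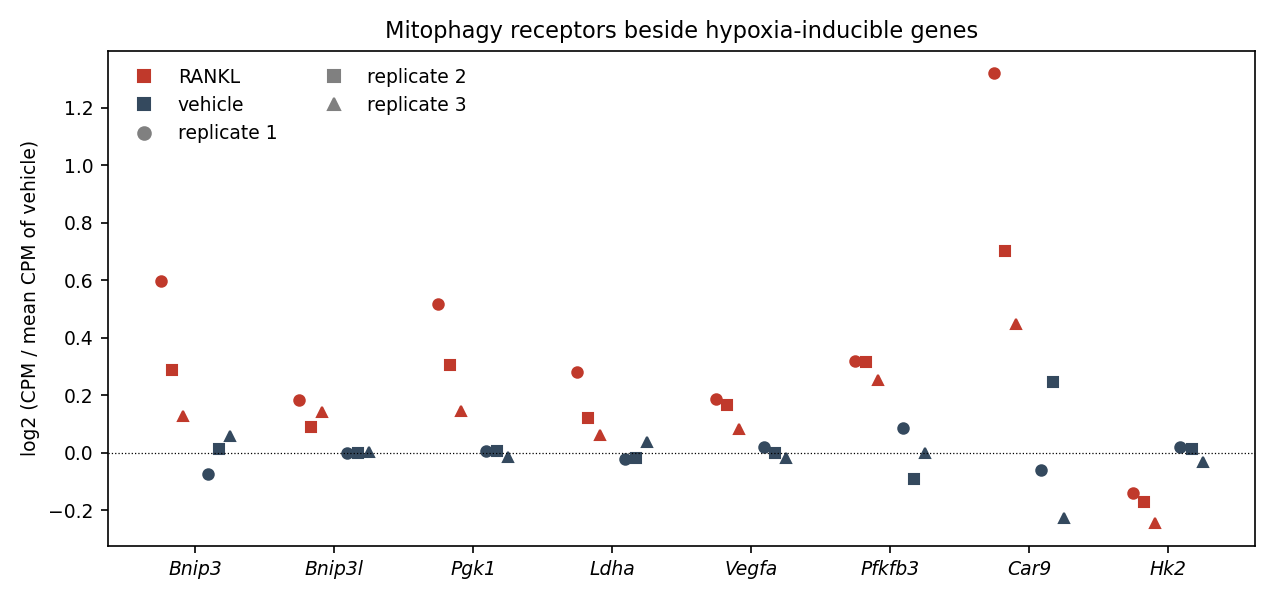
Level of each library relative to the vehicle mean (log2 of the CPM ratio, vertical axis) for the mitophagy receptors and the 6 called hypoxia-inducible genes, with RANKL in red and left of vehicle in blue, and marker shape for the replicate. RANKL replicate 1 is the highest RANKL library for all 8 genes shown, and the RANKL libraries of Hk2 lie below those of vehicle.

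The genes whose pattern over the 6 libraries lay closest to that of Bnip3, among the 8992 genes averaging 10 CPM or more, were Rhbdl2, Fez1 and Ctxn3. Their root mean square distances in centred log2 CPM were 0.0268, 0.0504 and 0.0557. Rhbdl2, a rhomboid protease, had 17.1, 14.0 and 12.5 CPM under RANKL, against 10.6, 11.6 and 11.4 CPM under vehicle, the same order within RANKL as Bnip3. For Bnip3l the closest were Lmod2 (leiomodin 2, an actin-binding protein of muscle), 9330159F19Rik and Riok3, at distances of 0.00900, 0.0124 and 0.0161. Lmod2 had 294.3, 277.4 and 284.5 CPM under RANKL, against 261.6, 262.2 and 262.5 CPM under vehicle. Bnip3l ranked 488th by closeness to Bnip3, and Bnip3 ranked 8206th by closeness to Bnip3l, both at a distance of 0.163. The measure keeps the size of changes, so a rank depends on which gene it is counted from. With 6 libraries and so many genes compared, close neighbours arise readily, and the distances are a description.

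The rest of the pathway was read from a list of 128 other autophagy and lysosome genes, of which 125 were measured. Of these 3 rose (2.4%, against 5.35% of all genes) and 14 fell (11.2%, against 7.5%), and the median log2 fold change was -0.01, beside 0.00 over all genes. With total count scaling 8 rose and 8 fell, so the count in each direction rests on the scaling. Over all genes that scaling likewise gave more calls of a rise and fewer of a fall, as given above. Without vehicle replicate 1, 0 rose and 7 fell. Without vehicle replicate 2, 9 fell, and without RANKL replicate 2, 7 fell. Without RANKL replicate 1, 1 rose, as with limma-trend on the deposited values. The counts by role below stand beside the same shares of all genes. In either direction these were 12.9% called and 27.2% at an unadjusted p under 0.05.

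Of 8 other mitophagy receptors and regulators 0 were called by edgeR, and 1 had an unadjusted p under 0.05. That 1 was Park2, which encodes the ubiquitin ligase Parkin, at 3.47 ± 0.115 CPM under RANKL and 2.85 ± 0.150 CPM under vehicle (log2 fold change 0.29 ± 0.12, adjusted p = 0.139, and 0 of 14 alternatives called it). Pink1, the kinase that activates Parkin on damaged mitochondria, had a log2 fold change of 0.05 ± 0.03 (adjusted p = 0.431), and Fundc1, another receptor on the outer membrane, one of 0.05 ± 0.07 (adjusted p = 0.701). Both were chosen after their values were seen. DESeq2 and limma-voom did not call Park2 either.

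Of 10 other cargo receptors 1 fell, Wdfy3 (ALFY, a scaffold for protein aggregates), to 181.1 ± 2.71 CPM under RANKL, against 201.9 ± 10.2 CPM under vehicle (log2 fold change -0.16 ± 0.04, adjusted p = 0.0128). It lost its call without vehicle replicate 1 or RANKL replicate 2, with limma-trend and with the trend on gene length removed, where its log2 fold change was -0.08. In the initiation kinase complex 0 of 4 genes were called by edgeR, with Atg101 at an unadjusted p under 0.05 (log2 fold change 0.11 ± 0.04, adjusted p = 0.103, called with total count scaling only). In the Becn1 complex 0 of 7 were called, with 4 at an unadjusted p under 0.05, against 27.2% of all genes. Ambra1, an activator of that complex, had the smallest p, with a log2 fold change of -0.10 ± 0.03 (adjusted p = 0.0694, and called in 0 of 14 alternatives, DESeq2 and limma-voom included). Of 16 conjugation and membrane genes 1 fell, the lipid transfer protein Atg2a (-0.13 ± 0.04, adjusted p = 0.0278), and its call ended in 9 of 14 alternatives.

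Of 13 genes for fusion of autophagosome and lysosome 1 rose, the SNARE Vamp8, to 49.3 ± 0.888 CPM under RANKL, against 43.1 ± 2.53 CPM under vehicle (log2 fold change 0.20 ± 0.05, adjusted p = 0.0118, not called without vehicle replicate 1 or 2). Of 20 measured lysosomal hydrolases besides Ctsl, 3 fell (15%, against 7.5% of all genes) and 1 rose (5%, against 5.35%). Gaa, the acid glucosidase that is deficient in Pompe disease, fell to 170.4 ± 3.48 CPM under RANKL, against 191.6 ± 2.52 CPM under vehicle (log2 fold change -0.17 ± 0.03, adjusted p = 0.00261), and was called in all 14 alternatives. Hexa, a subunit of the enzyme that degrades gangliosides, fell by 0.11 ± 0.03 on the log2 scale (adjusted p = 0.0332). Ctsc, a protease that activates serine proteases of immune cells, rose to 10.98 ± 1.5 CPM under RANKL, against 8.46 ± 0.856 CPM under vehicle (log2 fold change 0.39 ± 0.10, adjusted p = 0.0241). Hexa and Ctsc were chosen after their values were seen.

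Of 12 genes of the lysosomal membrane and of sorting 3 fell (25%, against 7.5% of all genes). Tpcn1, a lysosomal ion channel, fell to 209.4 ± 3.89 CPM under RANKL, against 248.6 ± 5.14 CPM under vehicle, or -0.25 ± 0.03 on the log2 scale (adjusted p = 0.000154). Sort1 (sortilin) fell by 0.21 ± 0.03 on the log2 scale, and both were called in all 14 alternatives. Npc1, the cholesterol exporter, chosen after its values were seen, fell by 0.12 ± 0.03 (adjusted p = 0.0292). Lamp1 and Lamp2, the main membrane glycoproteins and likewise chosen afterwards, had log2 fold changes of -0.04 ± 0.03 and 0.08 ± 0.04 and were not called (adjusted p = 0.495 and 0.186). Of 14 subunits of the proton pump 1 fell, Atp6v0a1 (-0.17 ± 0.03, adjusted p = 0.00502), and 1 rose, Atp6v1f (0.17 ± 0.05, adjusted p = 0.046, called in 7 of 14 alternatives).

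Of 19 regulators 5 fell (26.3%, against 7.5% of all genes), namely Foxo1, Foxo3, Rptor, Tsc2 and Prkaa2. Tsc2, an inhibitor of the mTORC1 kinase, fell to 152.0 ± 2.50 CPM under RANKL, against 169.1 ± 1.30 CPM under vehicle (log2 fold change -0.15 ± 0.03, adjusted p = 0.00439). Rptor, the mTORC1 subunit raptor, fell by 0.15 ± 0.03 on the log2 scale (adjusted p = 0.00985). Prkaa2, a catalytic subunit of AMPK, fell by 0.18 ± 0.05 (adjusted p = 0.0321), though its groups overlapped. Both were chosen after their values were seen. Tfeb, the regulator of lysosomal genes, chosen likewise, had a log2 fold change of -0.12 ± 0.05 (adjusted p = 0.147).

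**Figure D5:**
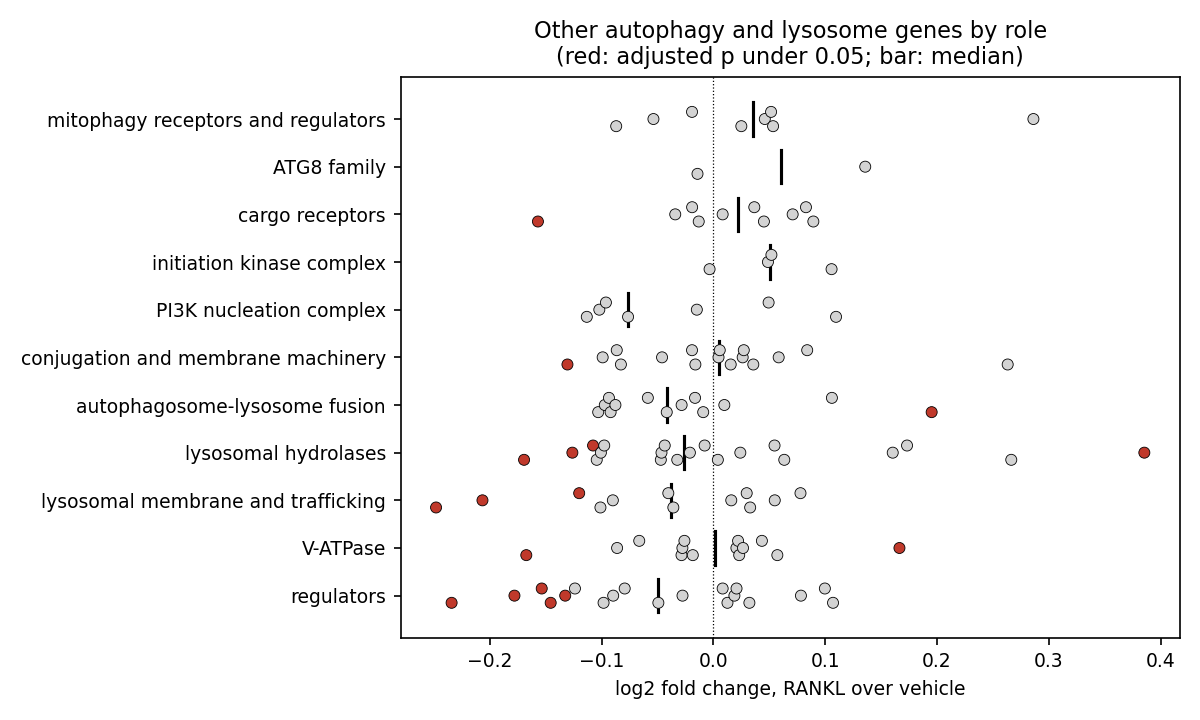
Log2 fold change, RANKL over vehicle (horizontal axis), of the 125 other measured autophagy and lysosome genes by role (rows), red where the adjusted p is under 0.05, with the median of each role as a bar. The 3 genes that rose are Vamp8, Ctsc and Atp6v1f, and the 5 called regulators all lie below 0.

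On mm10 all 10 genes are protein-coding. Bnip3 lies on chromosome 7 from 138890836 to 138909519 and Bnip3l on chromosome 14 from 66985239 to 67008877, both on the minus strand. Sqstm1 lies on chromosome 11 from 50199366 to 50210827 and Ulk1 on chromosome 5 from 110784488 to 110810097, also on the minus strand. Exons of 6 of the 10 genes overlap those of a gene on the opposite strand, namely Bnip3 (Gm45507), Map1lc3b (Zcchc14), Gabarapl1 (1700101I11Rik), Sqstm1 (Mrnip), Ctsl (Gm47123) and Becn1 (Cntd1), and those of Ctsl also overlap Gm49230 on its own strand. Whether counting used strand is not stated in the labels, so reads of these genes and their partners cannot be told apart. Bnip3l, Map1lc3a, Ulk1 and Atg5 have no such overlap. The same limit holds for Wdfy3, Sort1, Foxo1, Tsc2, Rptor, Hexa, Npc1, Lamp1 and Ctsb, whose exons also overlap a gene on the opposite strand.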

How the data were processed

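Per the submitters' processing notes, FastQC, STAR, edgeR and the build mm10 were used, with no versions or roles. The sources used here do not give the read counter, the annotation or the use of strand. The authors deposited a table of raw counts per gene symbol (12625 genes, then 4708 empty lines, left out) and a table of log2 values. The deposited log2 values differ from log2 CPM of the counts by a constant per gene and library, so they were read as log2 RPKM. The header names no unit.

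Groups came from the labels. Raw counts were tested with edgeR 4.0.16 (R 4.3.3): TMM, filterByExpr (0 genes removed), the quasi-likelihood test, and p-values adjusted over all genes by Benjamini-Hochberg (threshold 0.05). The SE is the size of the log2 fold change over the square root of F. DESeq2 1.42.0, limma 3.58.1 (voom, and trend on the log2 values), total count scaling, other filters, a term for replicate number, removal of the trend on gene length and leaving out each library were the alternatives. Of these, the fit without a filter repeats the edgeR fit, since filterByExpr removed 0 genes, and counts over alternatives include it. Count ratios of 8 gene pairs within a library were compared with exact permutation tests. Positions and exonic lengths are from GENCODE M21 on mm10, promoters from RefSeq GRCm38.p6. The fit was tested on simulated counts.

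The genes and lists were chosen with earlier results of these data known. Beyond the 10 genes, named were up to 2 called genes of each role or list by smallest p (or the 1 with the smallest p), the partners in ratios, and the 3 nearest in pattern to Bnip3 and to Bnip3l, 35 in all. The report marks the others as chosen after their values were seen. Intervals of fold changes come from the edgeR fit. The values of 1 gene that the rule names are not reported here.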

Additional observations from a re-analysis of the deposited data

How the results depend on the processing

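Over 14 alternatives the sign of the log2 fold change held for each of the 10 genes. Of the 10, 2 were called higher in edgeR's test (Bnip3 and Bnip3l) and 2 with DESeq2 (Bnip3l and Sqstm1). The count was 4 with total count scaling, 3 with limma-voom, 1 with limma-trend on the deposited log2 values, and 0 to 3 without 1 library. Called lower were 0, and 1 with limma-voom. Of the 125 other pathway genes 3 were higher and 14 lower, with total count scaling 8 and 8, with limma-trend 1 higher, and without 1 library 0 to 4 higher and 7 to 14 lower. Over all genes 676 were called higher and 947 lower, with total count scaling 1070 and 626, and without 1 library 373 to 746 and 537 to 880. Total count scaling moved the median log2 fold change of all genes to 0.04.

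Of the count ratios, Map1lc3a over Map1lc3b ranged from -0.0311 to 0.048 and Sqstm1 over Nbr1 from -0.0167 to 0.013 on the log2 scale without 1 library, and so changed sign. Ctsb was at 0.0095 with total count scaling, and Atg12 at -0.0014 with the length trend removed and from -0.0025 (without RANKL replicate 3) to 0.0141 (without RANKL replicate 1) without 1 library, against -0.021 and 0.0046 in edgeR's test.

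By exonic length of the annotation in place of the deposited values, the ranks by level were Sqstm1 1, Map1lc3a 2, Ctsl 3, Gabarapl1 4, Bnip3l 5, Map1lc3b 6, Ulk1 7 and Becn1 9.

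Deviations of same-numbered RANKL and vehicle libraries from their group means correlated at 0.188, 0.0703 and -0.0443, so the numbers were not taken as pairs. With the replicate block 2 of the 10 genes were called higher and 0 lower, and 15 pathway genes lower. The counting error of 1 library was 0.624% to 3.00% for the 10 genes, and whether depth limited their calls was not tested. The cause of the differences between settings was not tested.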

Other observations

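Composition of the ATG8 family was read from the deposited RPKM values, summed over its 5 measured genes. The sum was 692.9, 687.3 and 661.9 RPKM in RANKL libraries and 650.4, 649.4 and 684.5 RPKM in vehicle libraries, with overlap. Gabarap held the largest share, 38.5 ± 0.706% under RANKL and 40.01 ± 0.475% under vehicle, followed by Map1lc3a with 31.5 ± 1.42% and 30.9 ± 0.281%. Map1lc3b held 14.9 ± 0.173% under RANKL and 14.8 ± 0.441% under vehicle. Gabarapl1 and Gabarapl2 held 7.83 ± 0.381% and 7.31 ± 0.1998% under RANKL, against 7.49 ± 0.0642% and 6.84 ± 0.227% under vehicle (SD, n = 3 each). The shares rest on the gene lengths behind the deposited values and were not tested.

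Bnip3 and Bnip3l summed to 66.2, 57.9 and 56.2 RPKM in RANKL libraries and 50.03, 51.3 and 52.1 RPKM in vehicle libraries, so the groups did not overlap. Bnip3 made up 49.2%, 45.4% and 41.9% of that sum under RANKL, against 40.9%, 42.3% and 43.0% under vehicle, where RANKL replicate 3 lay within the vehicle range.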
